A study of Homo sapiens with 4 samples.

Results

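In the triple-negative breast cancer line MDA-MB-231, 2266 control H3K4me3 domains of less than 10 kb each met 2 or more separate peaks of the ARID1A knockout. Members were chosen by their control width, under 10000 bp, and by sharing at least 1 bp with at least 2 knockout peaks. They made up 6.18% of the 36677 control peaks and 6.37% of the 35598 control peaks under 10 kb. Another 7250 control domains under 10 kb held 1 knockout peak and 26082 held none. The 595 control domains of 10 kb or more with several knockout peaks were left aside. Both measured values used in the choice, the width and the number of knockout peaks, are therefore given as descriptions only. Without the knockout peaks of exactly 300 bp there were 704 such domains, and with knockout peaks no more than 1 kb apart merged there were 991.

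The study compared ARID1A knockout cells with control cells of the same line, without any treatment in the labels. Each genotype had 1 H3K4me3 immunoprecipitate (IP) and 1 input library, and the peaks of each IP were called with the input of that genotype as background, in hg19 positions. The labels do not say how the knockout was made or whether it is 1 clone, and inside the knockout file the library is called K6. The antibody label of both input libraries is IgG although they are described as input, and 3 of the 4 cell line labels end in other numbers than the series title. With 1 IP a genotype no test between genotypes was possible, no p-value is given, and a difference between genotypes cannot be told apart from a difference between cultures or libraries. The intervals below cover counting error only. No hg19 annotation or genome was used, so the domains are named by position and neither genes nor sequences are given for them. The ARID1A locus itself was not analysed here.

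H3K4me3 is placed on nucleosomes around active promoters by the SET1 and MLL methyltransferase complexes. It is usually strongest on the nucleosomes that flank the transcription start site, with a nucleosome-poor stretch between them, and it forms broad domains at highly active genes and at genes that mark cell identity. ARID1A is a DNA-binding subunit of the canonical BAF (SWI/SNF) complex, which uses ATP to slide or evict nucleosomes at enhancers and promoters.

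The libraries differed in more than genotype. The knockout IP held 13391724 tags and the control IP 27748061, and peaks took up 99.4% of the knockout tags against 62.1% of the control tags. Knockout peaks had a median width of 300 bp, the fragment length the peak caller used, against 2968 bp for control peaks. A width of exactly 300 bp was found for 55.02% of all 23588 knockout peaks, while the narrowest control peak was 453 bp wide. The part of these differences in the splitting of a control domain into several knockout peaks was not tested.

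Most member domains held a pair of knockout peaks. There were 1881 domains with 2 knockout peaks (83.0%, exact Clopper-Pearson 95% interval 81.4 to 84.5%), 344 with 3 (15.2%, 13.7 to 16.7%), 36 with 4 and 5 with 5. Together the 2266 domains held 4963 knockout peaks, and no knockout peak belonged to more than 1 member domain. Of these peaks, 126 (2.54%) reached past an edge of their domain, and 57 had their summit outside it. Domains with more knockout peaks were wider, with a median width of 6220 bp at 2 peaks, 7219.5 bp at 3, 8499 bp at 4 and 9211 bp at 5. Their median control tags were 1171, 1432, 1776 and 1965 in the same order. Per kb the medians were closer together, at 189 tags with 2 knockout peaks and 202, 218 and 211 with 3, 4 and 5. Across the 2266 domains, Spearman's rho between width and the number of knockout peaks was 0.21, a description over regions that share the same libraries. More peaks need more room, so the order by width and this rho are partly set in advance.

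The member domains were wide and tag-rich for control peaks under the limit. Their median width was 6403.5 bp (quartiles 5238.5 and 7753.75 bp), against 4814 bp for domains with 1 knockout peak and 2374 bp for domains with none. Their median was 1230.5 control tags (quartiles 880 and 1635), against 729.5 with 1 knockout peak and 109 with none. Density followed the same order, with medians of 191, 149 and 45.2 control tags per kb. The peak caller's false discovery rate was 1% or less for 2244 of the 2266 member domains (99.03%), for 86.6% of those with 1 knockout peak and for 39.9% of those with none. In all 3 classes the control summit lay near the middle, at a median of 51.1% of the width from the lower coordinate in members, 50.5% with 1 knockout peak and 51.2% with none.

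**Figure D1:**
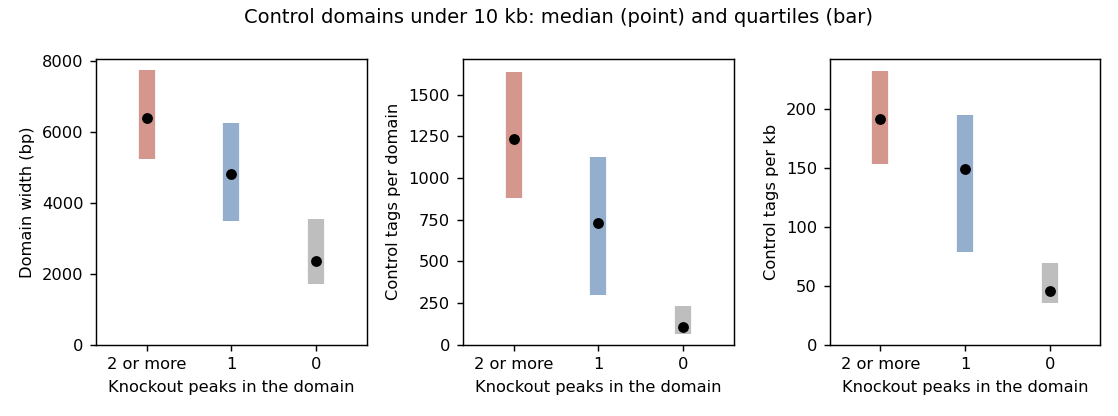
Width in bp, control tags and control tags per kb of control domains under 10 kb, by the number of knockout peaks they met, with the median as a point and the quartiles as a bar. Medians are ordered the same way in each panel: 6403.5, 4814 and 2374 bp, then 1230.5, 729.5 and 109 tags, then 191, 149 and 45.2 tags per kb for 2 or more, 1 and 0 knockout peaks.

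Width and tag density each went with membership. Of control domains under 2 kb, 4 of 10067 were members (0.0397%, 0.0108 to 0.102%). The share was 1.11% (0.939 to 1.3%) from 2 to 4 kb, 11.2% (10.5 to 11.99%) from 4 to 6 kb, 23.6% (22.2 to 25.03%) from 6 to 8 kb and 38.2% (35.5 to 40.9%) from 8 to 10 kb. A wider domain has more room for peaks, so this order is partly set by the rule. Within a width class the members still had more control tags per kb than domains with 1 knockout peak. From 4 to 6 kb the medians were 183 tags per kb in members, 167 with 1 knockout peak and 98.9 with none. From 6 to 8 kb they were 205, 186 and 139, and from 8 to 10 kb 202, 179 and 140. From 2 to 4 kb they were 130, 82.8 and 48.5.

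With the 35598 control domains in 10 groups of nearly equal size by tags, none of the 3560 weakest was a member, which allows a share of up to 0.0843% (3 counts of the total). The sixth group, with a median of 193 control tags, held 31 members (0.871%, 0.592 to 1.23%). The group with most tags, whose median was 1496, held 1219 (34.2%, 32.7 to 35.8%), and 1641 of its domains held 1 knockout peak. The 3 strongest groups together held 2128 of the 2266 members.

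**Figure D2:**
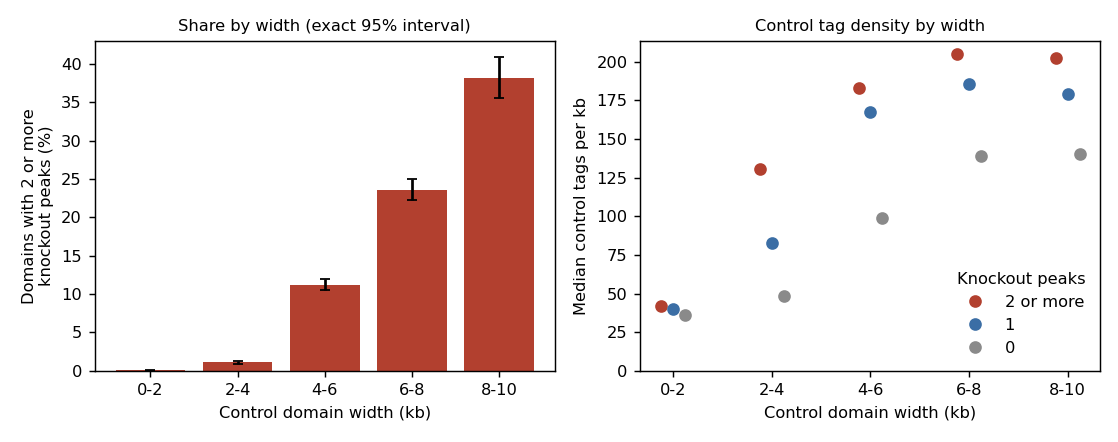
Left, percent of control domains in each width class (kb) that held 2 or more knockout peaks, as bars with exact 95% intervals, from 0.0397% under 2 kb to 38.2% from 8 to 10 kb. Right, median control tags per kb in the same width classes for domains with 2 or more, 1 and 0 knockout peaks; from 2 kb upward the points for 2 or more peaks lie above the others.

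The knockout peaks inside a member domain were short and covered little of it. Their median width was 301 bp (quartiles 300 and 520 bp, longest 2911 bp), and 2437 of the 4963 (49.1%, 47.7 to 50.5%) were exactly 300 bp wide. The peaks of a domain together covered a median of 15.0% of its width (quartiles 11.3 and 20.3%). Among the 1881 domains with a pair, 467 held 2 peaks of exactly 300 bp, 920 held 1 such peak and 494 held none. A knockout peak had a median of 482 tags in member domains (quartiles 220 and 843.5) and of 474 in domains with 1 knockout peak (quartiles 226 and 874).

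Tags were shared unequally among the peaks of a domain. The strongest knockout peak held a median of 69.9% of its domain's knockout tags (quartiles 58.3 and 82.8%). It held over 90% in 305 domains (13.5%) and under 60% in 658 (29.04%). In domains with a pair, the weaker peak had at least 50% of the tags of the stronger in 697 of 1881 (37.1%, 34.9 to 39.3%) and under 10% in 272 (14.5%, 12.9 to 16.1%). In 1723 of the 2266 domains (76.04%) every knockout peak had 100 tags or more. The tags of left and right neighbours did not rank together, with a Spearman's rho of -0.0090 over 2697 neighbouring pairs, which share libraries and domains.

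Summed over its peaks, a member domain had a median of 1192.5 knockout tags (quartiles 740.5 and 1822.5), against 1230.5 control tags over its whole width. Knockout tags between the peaks are not in the list and were not counted. Peaks took up 99.4% of the knockout library's tags over the genome, so by these totals few tags lie outside them. Whether the list and the library total count tags in the same way was not tested. With each count divided by its library's total, members had a median log2 ratio of knockout to control tags of 1.07. Its quartiles were 0.33 and 1.75, and its SD was 1.19. In domains with 1 knockout peak the median was 0.67 (quartiles -0.56 and 1.84). Members sum at least 2 peaks by the rule, so these medians are set side by side without more. The members' median lay at 0.02 for raw tags and at 0.39 when divided by all tags in peaks. On raw tags its interval included 0 (-0.038 to 0.076), so neither its size nor its direction holds under every scaling. The ratio sets the called knockout peaks, a small part of the width, against the whole control domain, so it is not a fold change of the mark over the same bases. Across member domains, Spearman's rho between knockout and control tags was 0.20. The knockout counts hold repeated tags, described under the processing, which were not removed here.

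Neighbouring knockout peaks stood at widely varying distances, with 1866 of 2697 pairs spaced 1000 bp or more. The median distance between neighbouring summits was 1284 bp (quartiles 931 and 1904 bp, range 490 to 5907 bp, 2697 pairs). The distribution began sharply near 600 bp, which is 2 fragment lengths. A spacing under 600 bp was found for 9 pairs (0.334%, 0.153 to 0.633%), and 822 pairs (30.5%) were spaced from 600 bp to under 1000 bp. A spacing of 2000 bp or more was found for 619 pairs (22.95%). Between the edges of neighbouring peaks the median gap was 788 bp. It was under 300 bp in 84 pairs (3.11%) and from 300 bp to under 400 bp in 382 (14.2%).

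Spacing grew less than width did. The median spacing was 1065 bp in member domains of 2 to 4 kb, 1179.5 bp from 4 to 6 kb, 1314.5 bp from 6 to 8 kb and 1546.5 bp from 8 to 10 kb. Spearman's rho between spacing and domain width over the 2697 pairs was 0.22. The first and last knockout summits of a domain were a median of 1503.5 bp apart, or 25.2% of its width, and in 2011 domains (88.7%) this span was under 50% of the width. With more peaks the span was longer and the spacing similar: the median spans were 1315, 2614.5, 4432 and 5252 bp with 2, 3, 4 and 5 peaks, and the median spacings 1315, 1214, 1283 and 1000 bp. Of the 385 domains with 3 or more peaks, 134 (34.8%) had a longest spacing of at least 2 times the shortest.

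**Figure D3:**
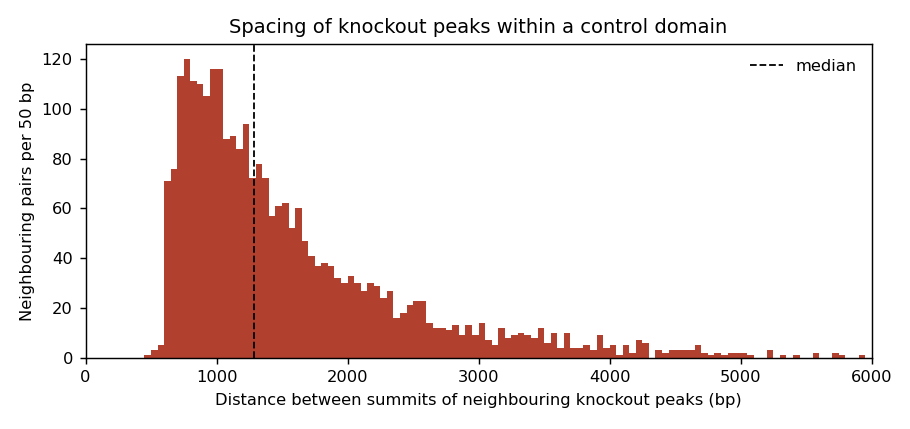
Number of neighbouring pairs of knockout peaks per 50 bp of distance between their summits (bp), over 2697 pairs in 2266 control domains, with the median of 1284 bp as a dashed line. Counts begin near 600 bp, are highest between about 700 and 1050 bp, and tail off to 5907 bp.

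Knockout summits were most dense at the control summit, with a level stretch from 250 to 1000 bp. The distance from the control summit was a median of 789 bp over the 4963 knockout peaks (quartiles 270.5 and 1485 bp). Within 500 bp lay 1777 of them (35.8%, 34.5 to 37.2%), while the same window made up 15.4% of the domains' length. Per kb of domain, there were 1.04 knockout summits at less than 250 bp from the control summit, 0.525 from 250 to 500 bp, 0.535 from 500 to 1000 bp, 0.288 from 1000 to 2000 bp and 0.127 beyond. Domains with 1 knockout peak had 0.789, 0.384, 0.243, 0.0883 and 0.0334 per kb in the same zones, without the level stretch from 250 to 1000 bp. Members hold several knockout peaks by the rule, so their higher values per kb are partly set in advance. Of the lone knockout summits, 58.7% lay within 500 bp of the control summit, a larger share than in members. That window made up 20.3% of the length of domains with 1 knockout peak. In domains of 4000 to 6000 bp the shares were 59.8% with 1 knockout peak and 38.7% in members. Only 9 of the 2697 neighbouring pairs in members were spaced under 600 bp, as given above. The part of this in the level stretch and in the members' smaller share within 500 bp was not tested. The lower and the higher coordinate side held similar numbers, with 2526 knockout summits on the lower side (50.9%, 49.5 to 52.3%), 10 exactly at the control summit and a median signed distance of -15 bp.

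Peaks close to the control summit were also wider and held more tags. At less than 250 bp the 1180 knockout peaks had a median of 606.5 tags and a width of 450 bp, and 40.1% were exactly 300 bp wide. From 500 to 1000 bp the 1208 peaks had a median of 476.5 tags, and 47.8% were of that width. At 2000 bp or more the 752 peaks had a median of 412.5 tags, and 57.98% were of that width. The quartiles of tags overlapped widely, at 285.75 and 1040.5 in the nearest zone and 170.75 and 716 in the farthest. In domains with 1 knockout peak the medians were 522 tags at less than 250 bp, 539 from 250 to 500 bp, 447 from 500 to 1000 bp, 373 from 1000 to 2000 bp and 375 from there on, so the nearest zone was not the highest.

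**Figure D4:**
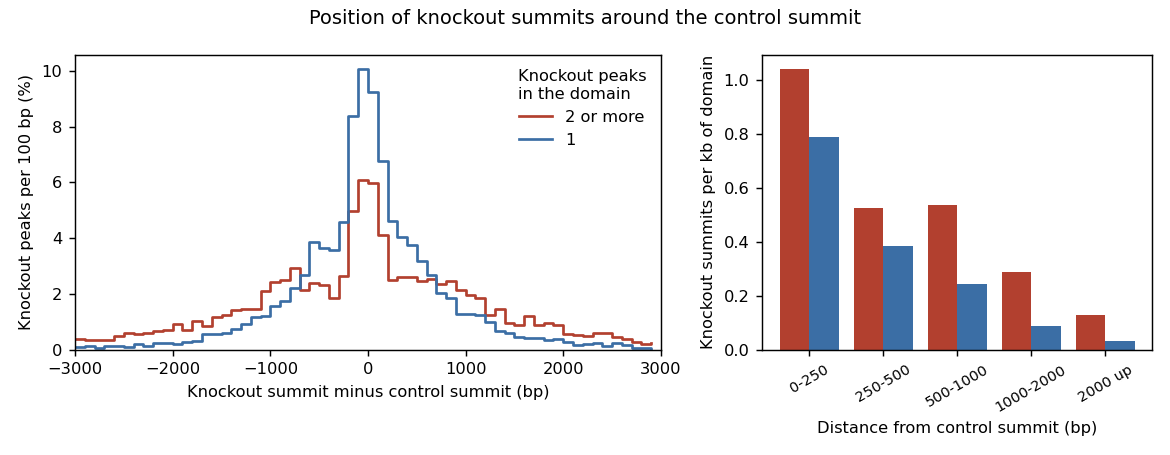
Left, percent of knockout peaks per 100 bp of signed distance (bp) between knockout and control summit, for control domains with 2 or more (4963 peaks) and with 1 knockout peak (7250 peaks). Right, knockout summits per kb of domain in 5 zones of distance for the same classes in the same colours; in domains with 2 or more peaks the zones from 250 to 500 bp and from 500 to 1000 bp are level, at 0.525 and 0.535.

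For most member domains at least 1 knockout peak lay on or beside the control summit. The nearest knockout summit was a median of 231.5 bp away (quartiles 94 and 492.5 bp), and in 126 domains (5.56%) it was beyond 1000 bp. A lone knockout peak was a median of 383 bp away. Having several peaks to choose from makes the nearest closer, so these values are set side by side without more. A knockout peak covered the control summit in 1238 member domains (54.6%, 52.6 to 56.7%) and in 3078 of the 7250 domains with 1 knockout peak (42.5%, 41.3 to 43.6%). Several peaks also give more chances that 1 of them covers the control summit, so no more is read from these shares.

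The knockout peaks stood on both sides of the control summit in 1418 of the 2266 member domains (62.6%, 60.5 to 64.6%). In 677 of these (29.9% of members) the control summit itself was not covered by a knockout peak, and in 741 (32.7%) it was. In the other 848 domains (37.4%) all knockout summits were on 1 side, with the control summit covered in 497 and not covered in 351. With 2 knockout peaks the share with both sides was 58.8% (56.5 to 61.03%), with 3 it was 81.4% (76.9 to 85.4%), and with 4 it was 77.8% (60.8 to 89.9%). More peaks give more chances of a summit on each side, so these shares are set side by side without more. The share changed little with width, at 62.5% from 2 to 4 kb, 64.3% from 4 to 6 kb, 63.4% from 6 to 8 kb and 58.4% from 8 to 10 kb.

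The 2 peaks of a pair were sorted into nearer and farther by their distance from the control summit. Only 9 of 2697 neighbouring pairs were spaced under 600 bp. The contrast in distance is therefore partly set by the sorting and that spacing. In the 1106 domains with 2 peaks on both sides, the nearer summit was a median of 260 bp from the control summit (quartiles 104 and 506.75 bp) and the farther 1047 bp (quartiles 760 and 1652.75 bp). In the 775 domains with both peaks on 1 side, the nearer was at 201 bp and the farther at 1608 bp. The nearer peak had a median of 550 tags and the farther 450.5 in flanking pairs, and 529 and 393 in pairs on 1 side. A width of exactly 300 bp was found for 42.6% of the nearer and 52.7% of the farther peaks of flanking pairs, and for 41.9% and 61.3% in pairs on 1 side.

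The strongest knockout peak was often not the one at the control summit. It was the nearest to the control summit in 1246 of 2266 domains (54.99%, 52.9 to 57.05%), and in 1020 another knockout peak was nearer. Its median distance from the control summit was 630 bp (quartiles 189 and 1206.75 bp). In pairs the peak with more tags was the nearer in 1079 of 1881 (57.4%, 55.1 to 59.6%). In the 344 domains with 3 peaks the strongest was the middle peak in 135 (39.2%, 34.1 to 44.6%), and the middle peak was the nearest to the control summit in 167 (48.5%, 43.2 to 53.97%).

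The 5 domains with 5 knockout peaks differed in layout. On chromosome 6, from 74155764 to 74164974, the knockout peaks held 508, 978, 518, 814 and 124 tags, against 2347 control tags over 9211 bp. Their summits lay at -3307, -753, 310, 1247 and 2343 bp from the control summit, which no knockout peak covered. The chromosome 1 domain from 36619308 to 36628771 had its peaks on 1 side. Its weakest peak, with 35 tags, lay 201 bp from the control summit, and the others, with 56, 160, 788 and 341 tags, lay 3474 to 5822 bp away, against 1998 control tags in all. The strongest part of the knockout signal there was thus far from the control summit.

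On chromosome 11, from 118885797 to 118895499, the 5 knockout peaks were nearly even, with 331, 528, 618, 629 and 569 tags against 1965 control tags. Their spacings ran from 704 to 1739 bp, and the first peak reached past the domain's edge. A second chromosome 6 domain, from 32140429 to 32148919, held 112, 1055, 975, 1563 and 466 knockout tags against 1658 control tags. Its strongest peak was 966 bp wide and covered the control summit. The narrowest of the 5, on chromosome 1 from 1278775 to 1285509, held 292, 529, 127, 396 and 780 knockout tags against 1447 control tags over 6735 bp, and its knockout peaks spanned 77.98% of the width. Its weakest peak, at 337 bp, was the nearest to the control summit.

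The domains with the most knockout tags were led by 1 or 2 peaks. On chromosome 17, from 16942153 to 16950778, the knockout peaks held 940, 45, 4587 and 82 tags, 5654 in all (exact Poisson interval 5508 to 5803), against 1940 control tags (1855 to 2028). The peak of 940 tags ran from 16941721 to 16942183 and so lay mostly outside the domain. The peak of 4587 tags had its summit 36 bp from the control summit and held 81.1% of the knockout tags. On chromosome 1, from 155653946 to 155662456, the peaks held 360, 881, 2847 and 1514 tags against 3127 control tags, and all 4 summits lay at lower coordinates than the control summit. On chromosome 6, from 166072886 to 166078492, the peaks held 3007, 1570 and 618 tags against 1392 control tags, and the strongest lay 291 bp from the control summit. In these 3 domains the scaled log2 ratio was 2.59, 1.89 and 2.95. The domains were chosen by their knockout tags, so high ratios partly follow from the choice. The ratio of 2.59 also counts all 940 tags of the peak that lay mostly outside its domain.

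The 5 domains with the most control tags held 2 or 3 knockout peaks each. The strongest, on chromosome 5 from 39070335 to 39078788, held knockout peaks of 276 and 1181 tags against 3718 control tags (3599 to 3839), and its scaled log2 ratio was -0.30. The weaker peak was the nearer, at 307 bp against 989 bp. The next 3 domains were on chromosome 1. From 235487117 to 235496191, peaks of 3175 and 483 tags stood against 3305 control tags, and the stronger lay 2068 bp away while the weaker lay 52 bp from the control summit. From 231467410 to 231477391, peaks of 979 and 1890 tags stood against 3272 control tags, and the stronger was the nearer, at 70 bp. From 155527625 to 155537444, peaks of 224, 1639 and 517 tags stood against 3235 control tags. The chromosome 9 domain from 102580235 to 102588800 held peaks of 712, 170 and 951 tags against 3221 control tags, all on 1 side and 927 to 3695 bp from the control summit.

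**Figure D5:**
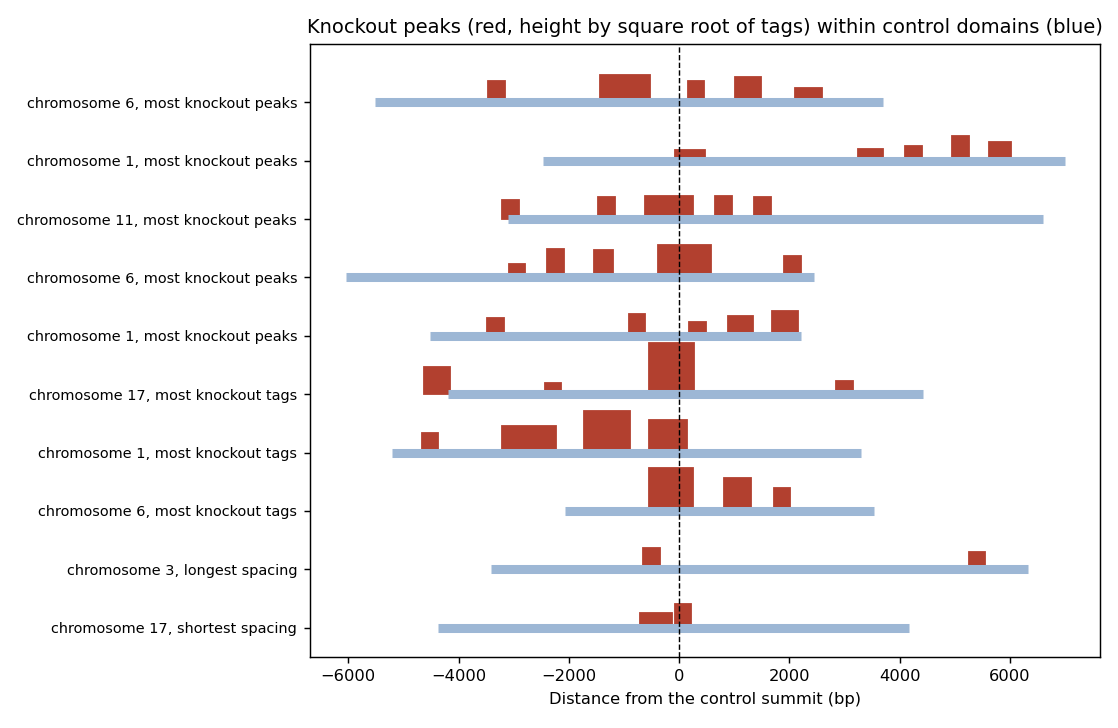
The 10 control domains are drawn to scale around their control summit (dashed line, distance in bp), as blue bars, with their knockout peaks as red boxes whose height follows the square root of the tags. From the top, the 5 domains with 5 knockout peaks, the 3 with most knockout tags, and those with the longest (5907 bp) and the shortest (490 bp) spacing; the chromosome 17 domain with the peak of 4587 tags has its tallest box on the control summit.

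At the extremes of spacing the members looked unlike each other. The longest spacing, 5907 bp, was on chromosome 3 from 53191993 to 53201727, between knockout peaks of 454 and 235 tags at -505 and 5402 bp, in a domain of 1760 control tags. On chromosome 19, from 2027213 to 2033664, peaks of 36 and 655 tags were 5773 bp apart in a domain of 359 control tags, and the weaker reached past the domain's edge. Another chromosome 3 domain, from 11311706 to 11321416, held peaks of 363 and 153 tags 5725 bp apart against 1391 control tags. The shortest spacing, 490 bp, was on chromosome 17 from 58598996 to 58607537, between peaks of 127 and 633 tags at -417 and 73 bp, against 1933 control tags. The next shortest were 500 bp on chromosome 19 from 7579323 to 7584592 and 520 bp on chromosome 5 from 111090801 to 111095104. In each of these 3 close pairs 1 peak was 300 bp wide and the other 582 to 610 bp.

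The 3 narrowest members were weak control peaks, each with 1 strong and 1 weak knockout peak relative to each other. On chromosome 22, from 43165407 to 43166726, knockout peaks of 71 and 1070 tags stood in a control peak of 62 tags (47.5 to 79.5) and 1320 bp. On chromosome 10, from 126029188 to 126030948, peaks of 19 and 242 tags stood against 62 control tags, and on chromosome 18, from 13800524 to 13802342, peaks of 1314 and 18 tags against 103. Their scaled log2 ratios were 5.23, 3.11 and 4.73. In each the stronger peak held over 90% of the knockout tags.

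The width limit cut through a continuous range. The widest members were 9997 bp on chromosome 19 from 7455159 to 7465155, with knockout peaks of 15, 208 and 736 tags against 1994 control tags, and 9983 bp on chromosome 20 from 35916258 to 35926240, with peaks of 1353 and 1438 tags against 1729. The narrowest domains just past the limit were 10002, 10010 and 10011 bp wide, with 2 knockout peaks each and 1662, 1880 and 2240 control tags. There were 96 members of 9500 bp or more. The overlap limit mattered for fewer: in 12 members the second knockout peak shared under 50 bp with the domain, the smallest overlap being 5 bp. Among domains with 1 knockout peak, 16 had another within 100 bp of their edge, the nearest 22 bp outside.

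Members were found on chromosomes 1 to 22 and X. Their share of control domains under 10 kb was highest on chromosome 19, at 188 of 1463 (12.9%, 11.2 to 14.7%), followed by chromosome 17 at 9.44% (8.05 to 10.97%) and chromosome 7 at 8.17% (6.94 to 9.55%). It was lowest on chromosome 21, at 14 of 390 (3.59%, 1.98 to 5.95%). On chromosome 19 all control domains under 10 kb were also wide and strong, with medians of 4117 bp and 431 tags, against 2494.5 bp and 125.5 tags on chromosome 21. On chromosome Y none of 30 control domains was a member, which allows a share of up to 10% (3 counts of the total). Over the 23 chromosomes with members, the median spacing ran from 1002.5 bp on chromosome 21 to 1544.5 bp on chromosome 15, and the median distance from the control summit from 534.5 bp on chromosome 21 to 879 bp on chromosome 16.

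Distances to other peaks were close in members and in domains with 1 knockout peak. The nearest other control peak was a median of 12185.5 bp from a member's edge and 12431.5 bp from the edge of a domain with 1 knockout peak. The nearest knockout peak outside the domain was a median of 23565.5 bp away for members, 25333 bp with 1 knockout peak and 34354 bp with none. It lay within 1 kb of the edge for 90 members (3.97%, 3.21 to 4.86%), for 2.92% of domains with 1 knockout peak and for 2.16% of those with none. Of the 2266 members, 79 belonged to 38 runs of 2 or 3 members no more than 10 kb apart. Within a run no other control domain under 10 kb lay between the members. Members were 6.37% of control domains under 10 kb, and no run count of the other classes is given.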

How the data were processed

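Per the submitters' processing notes, Bowtie2 2.2.4, MACS 1.4.3 and hg19 were used. Per the file headers, sequences were trimmed with cutadapt and aligned, and MACS compared 1 IP with 1 input of its genotype at a p cutoff of 0.0001, a fragment length of 300 bp, a band width of 300 bp and a model fold of 10 to 30, the larger library being scaled to the smaller. Removal of duplicate tags before the peak calling was not stated. Knockout peaks in members reached 8737 tags per kb, more than 1 tag per position and strand allows, so repeated tags were in those counts. The median over these 4963 peaks was 1181 tags per kb (quartiles 550 and 1982). Member domains reached at most 440 control tags per kb over their whole width. How far repeated tags raise the knockout counts was not tested.

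The deposited tag counts are whole IP tags per peak, not normalized. The deposited score is the negative log10 of the peak caller's p, multiplied by 10, identified by its place in the table because its column name was lost. The deposited fold enrichment is a ratio of IP tags to local background from the input, and the false discovery rate was deposited as a percent. These last 3 are the authors' values, on different scales in the lists, and were used only to filter or describe peaks within a list. Libraries were grouped by title and lists were matched by name.

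The tools were pandas 2.3.3 and numpy 2.4.6 under Python 3.11.15, with scipy 1.17.1 for intervals and matplotlib 3.10.9 for figures. Overlap meant at least 1 shared bp, and the number of members was checked against bedtools 2.31.1. Summits are start plus the deposited offset. Spacing is the distance between summits of neighbouring knockout peaks of 1 domain, and ties in tags or distance went to the lower coordinate. Log2 ratios used a pseudocount of 1. Shares have exact Clopper-Pearson intervals, and a count of 0 was taken to allow up to 3 counts of the total. Intervals treat tags and regions as independent, which copies of 1 fragment are not. The overlap, spacing and distance steps were tested on simulated data. Named regions, outside chromosomes 8 and Y, were the 5 with most knockout peaks, the 5 with most control tags, the 3 with most knockout tags, the 3 longest and 3 shortest spacings, and the 3 widest and 3 narrowest. The members and the rules were chosen with earlier results of these data known.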

Additional observations from a re-analysis of the deposited data

How the results depend on the processing

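No paired analysis was possible because each genotype has 1 IP library, and for the same reason no library could be left out. Of 102 alternative values, 64 stayed within the counting interval of the reported value (for the number of domains, within 1.5 times) and 38 moved. Stricter p, fold enrichment and overlap criteria, and merging knockout peaks within 300 bp, moved none. A false discovery rate of 1% or less moved the median share of tags in the strongest peak to 68.9%.

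Settings that redefine the members moved more, by their construction. Under 5000 bp there were 475 domains, with medians of 4304 bp and 697 control tags, a spacing of 1079.5 bp, a distance of 642 bp, 41.9% of summits within 500 bp and 72.5% of tags in the strongest peak. Without a width limit the medians were 7090 bp and 1391 tags, the spacing 1401 bp, the distance 895 bp, 32.6% within 500 bp and 68.4% in the strongest peak. With 3 or more knockout peaks there were 385 domains of 7353 bp and 1471 tags, a spacing of 1219 bp, a distance of 1015 bp, 27.7% within 500 bp, both sides in 81.04%, the strongest peak nearest in 43.4% and 57.7% of tags in it. Without the 300 bp knockout peaks there were 704 domains of 6752 bp and 1358.5 tags, a spacing of 1366 bp and the strongest peak nearest in 57.2%. With knockout peaks within 1000 bp merged there were 991 domains of 6853 bp and 1281 tags, a spacing of 2224 bp, a distance of 1208 bp, 29.3% within 500 bp, the strongest peak nearest in 61.8% and 72.7% of tags in it. The median log2 ratio was 0.021 for raw tags, where its interval of -0.038 to 0.076 leaves no direction, and 0.39 over all tags in peaks. How far the lower knockout depth limits the number of its peaks was not tested.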
